A study of Mus musculus with 21 samples.

Results

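The genes described here are 10 genes listed as markers of the choroid plexus epithelium (Slc39a12, Calml4, Abca4, Folr1, Enpp2, Lbp, Slc13a4, Prlr, Tmem72 and Kl), followed library by library through a set of newborn mouse brain libraries. They are 10 of the 31883 genes in the deposited table. They were taken by gene symbol and had been chosen by their normalized counts in these same libraries, since choroid plexus genes were seen to be high in subcommissural organ libraries of the table, some of them in 1 library only. Their levels in these libraries are therefore a description and not a test. The question is which of them were present in every SCO library and which were high in SCO replicate 4 alone.

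The subcommissural organ (SCO) is a small gland of secretory ependymal cells in the roof of the brain, where the third ventricle meets the aqueduct. The SCO group holds 4 libraries and the hippocampus group 5, all from C57BL/6 mice on postnatal day 0, with no other genotype or treatment given. Total RNA of the dissected tissue was sequenced, so each library mixes all cells of the piece that was taken. The labels do not say whether the libraries of a tissue come from separate animals or from pools, so the spread between them may be technical. A further 12 libraries of the series, from postnatal day 60, were not analysed here.

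The choroid plexus is a folded sheet of epithelium over a vascular core that hangs into the brain ventricles and secretes cerebrospinal fluid. Its epithelial cells carry ion, vitamin and metal transporters and secrete transthyretin in large amounts. They share their origin in the ventricular lining with ependymal cells, and in the roof of the third ventricle the choroid plexus lies close in front of the SCO. In a bulk library, fewer cells of a type and less RNA per cell cannot be told apart.

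Levels are the authors' normalized counts, in which the reads of a gene are divided by the size factor of the library. Whole reads could be recovered from every value. The libraries hold 35379988 to 151009954 reads summed over genes, and 3 reads correspond to 2.74 to 4.48 normalized counts in an SCO library. Summed reads of 13 SCO markers, among them Sspo, which codes for SCO-spondin, took 0.0380% to 0.112% of an SCO library and 0.0135% to 0.0206% of a hippocampus library.

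Of the 10 genes, 7 have a promoter in the RefSeq table for GRCm38.p6 (Prlr has 3). The 250 bases before the RefSeq start are shown for 4 of them, Slc39a12, Calml4 and Abca4, which were above hippocampus in every SCO library, and Tmem72, which was high in replicate 4 alone, so that promoters of both kinds stand side by side. They lie at chr2:14388148-14388397 (plus strand), chr9:62857854-62858103 (plus), chr3:122044210-122044459 (plus) and chr6:116716759-116717008 (minus). The GENCODE M21 genes start further upstream, so that 82, 24, 17 and 155 bases of these windows lie inside the GENCODE gene. Capitals mark matches to the motifs searched.
Slc39a12: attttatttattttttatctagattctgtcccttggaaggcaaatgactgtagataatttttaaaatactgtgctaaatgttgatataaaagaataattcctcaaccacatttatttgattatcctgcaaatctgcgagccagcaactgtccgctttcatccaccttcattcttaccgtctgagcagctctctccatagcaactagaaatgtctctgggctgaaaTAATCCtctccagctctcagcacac
Calml4: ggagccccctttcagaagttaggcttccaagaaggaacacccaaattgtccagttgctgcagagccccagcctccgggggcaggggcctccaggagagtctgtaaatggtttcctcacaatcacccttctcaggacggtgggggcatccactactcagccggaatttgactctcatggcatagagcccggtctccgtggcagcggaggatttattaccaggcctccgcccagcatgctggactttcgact
Abca4: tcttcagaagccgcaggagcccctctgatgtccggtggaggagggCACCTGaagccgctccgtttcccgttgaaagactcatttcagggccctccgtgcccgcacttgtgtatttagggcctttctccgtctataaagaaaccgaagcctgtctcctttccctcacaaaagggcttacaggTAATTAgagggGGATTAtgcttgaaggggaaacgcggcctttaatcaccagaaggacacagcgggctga
Tmem72: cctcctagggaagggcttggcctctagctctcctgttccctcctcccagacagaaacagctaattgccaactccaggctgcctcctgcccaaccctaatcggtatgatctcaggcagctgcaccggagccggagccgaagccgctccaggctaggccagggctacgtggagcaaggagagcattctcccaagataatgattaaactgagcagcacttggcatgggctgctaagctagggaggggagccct

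The motifs searched on both strands were TAATCC, bound by homeodomain factors of the OTX type, TAATTA, bound by LIM homeodomain factors, GTTGCC, part of the X-box of RFX factors, TGTTTAC, a forkhead motif, and CAGGTG, an E-box. The Slc39a12 window holds TAATCC beginning 25 bases before the RefSeq start. The Abca4 window holds CAGGTG as its reverse complement, then TAATTA and the reverse complement of TAATCC. None of the 5 motifs is in the Calml4 or Tmem72 window. Of the windows not shown, 1 of the 3 of Prlr, also high in replicate 4 alone, holds TGTTTAC and the reverse complement of CAGGTG. The Kl window holds CAGGTG, and the Slc13a4 and other Prlr windows hold none of the 5 motifs. Over 32851 mouse promoters of the same length, TAATCC was in 6.25%, TAATTA in 4.84%, GTTGCC in 10.4%, TGTTTAC in 3.17% and CAGGTG in 17.2%. A match describes the letters only.

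Each gene was put in 1 of 4 classes. A gene counted as high in SCO replicate 4 alone where that library held at least 3 times the highest of the other 3 SCO libraries. It counted as present in all SCO libraries where every SCO library was above every hippocampus library and replicate 4 was under that line. The rest were mixed, or not detected. A minimum of 100 normalized counts in replicate 4 for the 3-times line was added after values had been seen. On this rule 5 genes were present in all SCO libraries (Slc39a12, Calml4, Abca4, Folr1 and Enpp2), 2 were high in replicate 4 alone (Prlr and Tmem72), 2 were mixed (Lbp and Slc13a4), and Kl was not detected in SCO. Over all 28150 genes tested, 4.78% had every SCO library above every hippocampus library, and 5.21% of genes with at least 100 normalized counts in replicate 4 passed the 3-times line there.

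**Figure D1:**
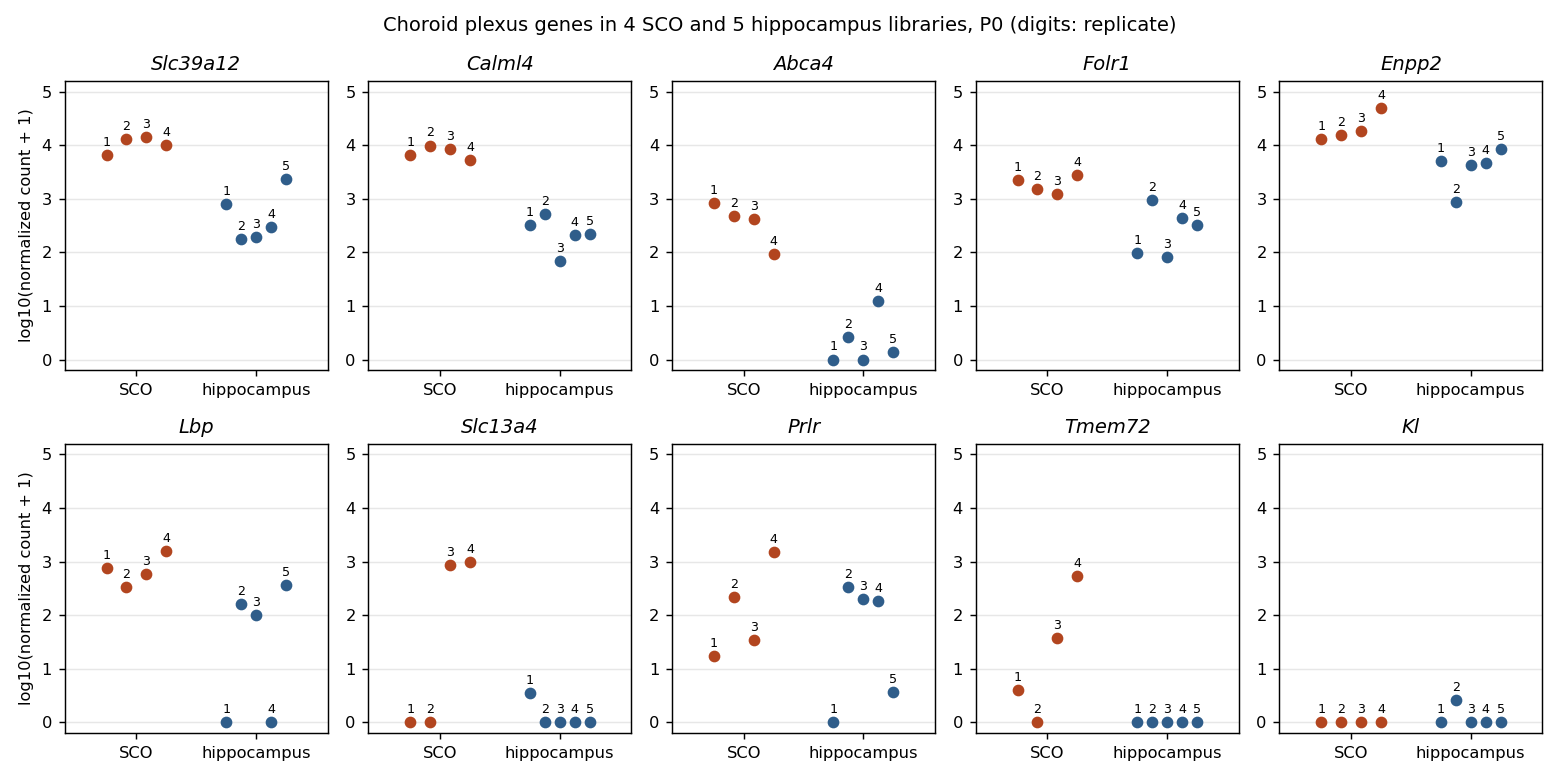
Level of each of the 10 genes in every library, as log10(normalized count + 1), with 4 SCO points (red) left of 5 hippocampus points (blue) and the replicate number above each point. Slc39a12, Calml4, Abca4, Folr1 and Enpp2 have all SCO points above all hippocampus points, and Prlr and Tmem72 have SCO replicate 4 far above the other SCO points.

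Slc39a12, a zinc transporter, was high in every SCO library. It had 6689, 13034, 14547.5 and 10060.4 normalized counts in SCO replicates 1 to 4, against 800.2, 173, 194, 299 and 2315 in hippocampus replicates 1 to 5. Every SCO library was at least 2.89 times the highest hippocampus library, and replicate 4 was in the middle of the SCO range, at 0.692 times the highest other SCO library. The log2 difference of SCO minus hippocampus, on the log2(normalized count + 1) scale, was 4.55 ± 0.72 (SE, 4 SCO and 5 hippocampus libraries), and it was 4.58 ± 0.83 without replicate 4. Slc39a12 lies at chr2:14388316-14494977 on the plus strand.

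Calml4 codes for a calmodulin-like light chain of the adhesion complex that links brush border microvilli. Its levels were 6718, 9901, 8406 and 5219 normalized counts in SCO replicates 1 to 4, against 322, 525, 68.1, 207 and 219.6 in hippocampus. Replicate 4 was the lowest of the SCO libraries, and the lowest SCO library was still 9.94 times the highest hippocampus library. The log2 difference was 5.05 ± 0.54 with all libraries and 5.21 ± 0.62 without SCO replicate 4. Calml4 shares 9921 bases at its start with Gm10653, a pseudogene on the other strand. At least 3245, 5024, 7335 and 3195 of its reads in SCO replicates 1 to 4 lay outside that stretch, against at least 58, 102, 44, 0 and 404 in hippocampus.

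Abca4, a retinoid transporter known from photoreceptor outer segments, ran opposite to the replicate 4 pattern. It had 843, 468, 415 and 91.8 normalized counts in SCO replicates 1 to 4, against 0, 1.65, 0, 11.3 and 0.381 in hippocampus replicates 1 to 5. Replicate 4 was the lowest SCO library, at 0.109 times the highest, yet all SCO libraries were above all hippocampus libraries. The log2 difference of 7.36 ± 1.16 became 8.0 ± 1.22 without SCO replicate 4.

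The Abca4 reads need care. The gene at chr3:122044443-122180123 shares 55018 bases with Gm43158, a pseudogene on the other strand. Gm43158 had 640, 317, 455 and 83 reads in SCO replicates 1 to 4, and Abca4 had 565, 317, 455 and 82. In no SCO library did Abca4 have more reads than Gm43158, so none of its reads need have come from outside the shared stretch. In this table, reads over 2 overlapping genes appear in the value of both. Among 2962 gene pairs with the inner gene wholly inside the outer and at least 200 reads in its highest library, the outer gene had at least as many reads as the inner in all 9 libraries in 2962 pairs, as when whole gene bodies with their introns are counted. Reads of Abca4 and of its partner cannot be told apart.

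Folr1 codes for folate receptor alpha, which carries folate across the choroid plexus into cerebrospinal fluid. It had 2266, 1506, 1205 and 2805 normalized counts in SCO replicates 1 to 4, against 94.9, 948, 79.4, 446 and 324 in hippocampus. The groups did not overlap, but the gap was narrow, with the lowest SCO library at 1.27 times the highest hippocampus library. Replicate 4 was the highest SCO library by a factor of 1.24. The log2 difference was 2.86 ± 0.73, and 2.66 ± 0.83 without replicate 4. Folr1 shares 7074 bases at its start with Anapc15 on the other strand. Anapc15 had 1656, 1666, 1709 and 2131 reads in SCO replicates 1 to 4, against 1519, 1020, 1320 and 2506 for Folr1, so at least 375 Folr1 reads of replicate 4 lay outside the overlap and no such bound can be given for the other SCO libraries.

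Enpp2, at chr15:54838901-54952892 on the minus strand, codes for autotaxin, the secreted enzyme that makes lysophosphatidic acid, and it is also known from oligodendrocytes and other brain cells. Its levels were 13112, 15664, 18243 and 49097 normalized counts in SCO replicates 1 to 4, against 4983, 877, 4239.7, 4672 and 8465 in hippocampus. Enpp2 was therefore both present in all SCO libraries and highest in replicate 4, which stood at 2.69 times the next SCO library. It is the gene just under the 3-times line, and Prlr, at 6.73 times, is the gene just over it. The log2 difference was 2.47 ± 0.62 with all libraries and 2.05 ± 0.62 without SCO replicate 4, while the ratio of the mean normalized counts was 5.17 with all libraries and 3.37 without it.

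Lbp, the lipopolysaccharide binding protein, was read in every SCO library but did not clear hippocampus. It had 765, 329, 582 and 1564 normalized counts in SCO replicates 1 to 4, against 0, 162, 100.1, 0 and 366 in hippocampus. Hippocampus replicate 5 was above SCO replicate 2, so the groups overlapped, and replicate 4 was 2.04 times the next SCO library. The log2 difference of 4.93 ± 1.86 was 4.54 ± 2.13 without SCO replicate 4.

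Slc13a4 codes for a sulfate transporter. It was absent from replicates 1 and 2 of SCO, with 0 reads in each, and had 859 and 982 normalized counts in replicates 3 and 4, from 941 and 877 reads. In hippocampus, 2 reads were found in replicate 1 and none in the other 4 libraries. The ratio of the mean normalized counts was 922, with a 95% interval of 255 to 7610 that covers counting error only, and it was 574 without SCO replicate 4. The denominator of both is 2 reads. The 0 in SCO replicates 1 and 2 allows up to 3 reads, 4.48 and 4.43 normalized counts.

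Prlr, the prolactin receptor, was high in replicate 4 alone. It had 16.4, 220.0, 33.8 and 1481 normalized counts in SCO replicates 1 to 4, against 0, 335, 195, 184 and 2.66 in hippocampus replicates 1 to 5. Apart from replicate 4, no SCO library was above hippocampus replicate 2, so the groups overlapped widely. The log2 difference was 1.81 ± 2.03 with all libraries and 0.60 ± 2.12 without replicate 4, and the ratio of the mean normalized counts was 3.06 with it and 0.629 without it. Prlr, at chr15:10177238-10349180 on the plus strand, shares the 23801 bases at its end with the predicted gene Gm21973 on the same strand. Gm21973 had 912 reads in SCO replicate 4, where Prlr had 1323. At least 10, 141, 8 and 411 Prlr reads in SCO replicates 1 to 4 lay outside that stretch, against at least 0, 1, 64, 209 and 0 in hippocampus replicates 1 to 5. On these lower bounds, as normalized counts, SCO replicate 4 had 460.0 and SCO replicate 2 had 208, a ratio of 2.21. Both values are lower bounds, so 2.21 does not bound the ratio outside that stretch. Whether Prlr passes the 3-times line on reads outside it cannot be told.

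Tmem72, a membrane protein gene at chr6:116679063-116716913 on the minus strand, was the more marked of the genes high in replicate 4 alone. It had 2.98, 0, 35.6 and 534 normalized counts in SCO replicates 1 to 4, from 2, 0, 39 and 477 reads, and no read in any of the 5 hippocampus libraries. Replicate 4 was 15.0 times the next SCO library. Replicates 1 and 2 were under the level of 3 reads. The SCO mean was at least 51.0-fold higher than hippocampus when each hippocampus library was set to 3 reads, and at least 4.58-fold higher without SCO replicate 4. The log2 difference was 4.06 ± 1.58 with all libraries and 2.40 ± 1.11 without SCO replicate 4.

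Kl codes for klotho, a co-receptor of the hormone FGF23 that is known from the kidney and the choroid plexus. It had 0 reads in all 4 SCO libraries, including replicate 4, and 1 read in hippocampus replicate 2. With up to 3 reads possible at a count of 0, Kl was not detectable at this depth, and it was not tested.

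**Figure D2:**
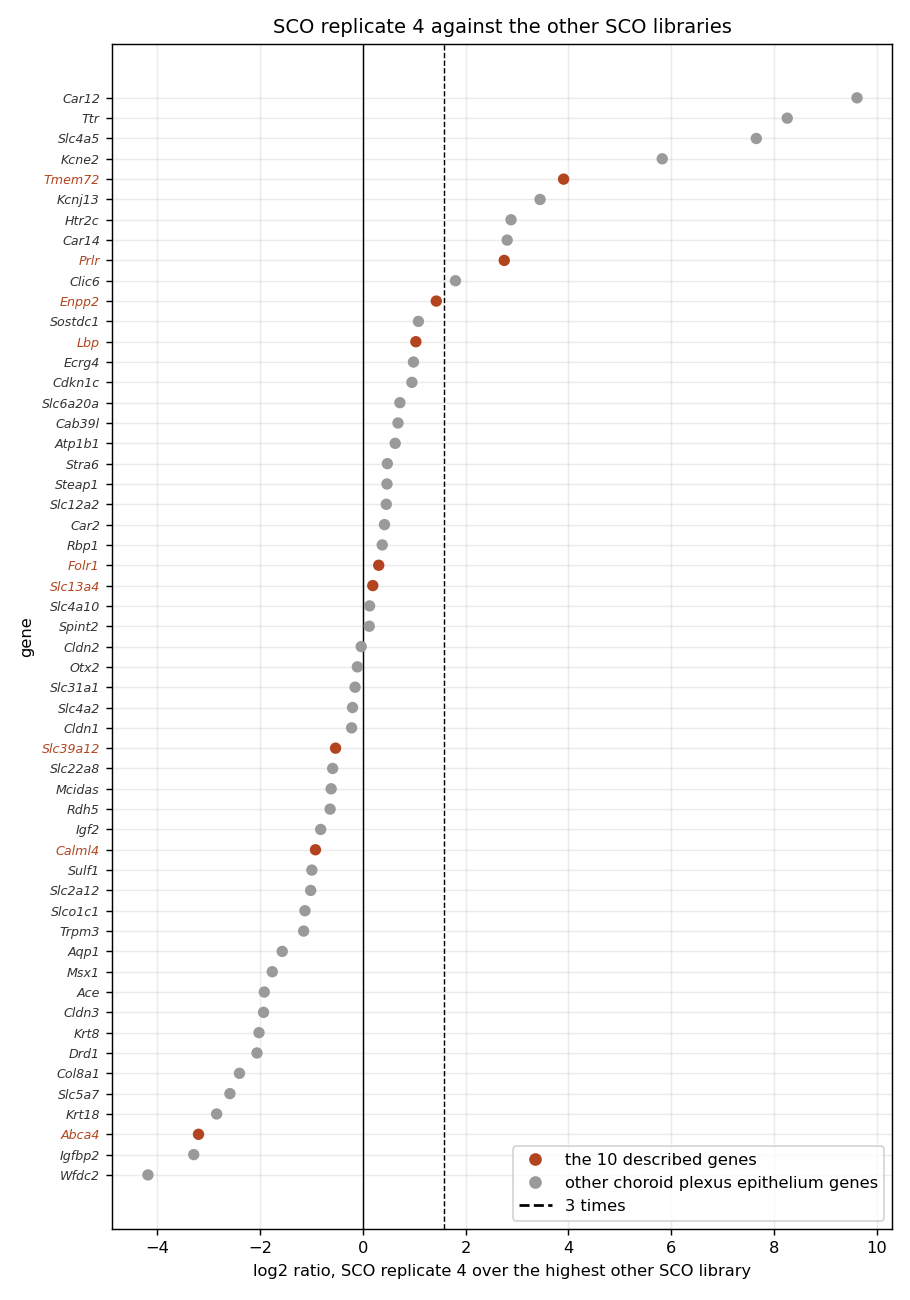
Normalized count of SCO replicate 4 over the highest other SCO library, on a log2 scale, for 9 of the 10 described genes (red) and 45 other choroid plexus genes (grey), with the 3-times line dashed. Tmem72 and Prlr lie right of the line with 8 of the grey genes, Enpp2 lies just left of it, and Abca4 lies far to the left.

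On the RPKM scale, which sets reads per kilobase of exon and per depth of the library, the SCO means were 74.4 ± 50.7 for Enpp2, 66.4 ± 19.3 for Slc39a12, 37.6 ± 10.6 for Calml4 and 15.4 ± 5.79 for Folr1 (SD, n = 4). They were 3.01 for Lbp, 1.77 for Slc13a4, 0.695 for Abca4, 0.508 for Prlr and 0.147 for Tmem72. The genes high in replicate 4 alone were thus low in level per length as a mean over SCO. Enpp2 was above Slc39a12 in 2 of 4 SCO libraries and Slc13a4 above Abca4 in 2 of 4, so neither pair has an order beyond its spread. Reads in introns appear to be in the counts, so exon length is not the whole counted length. With the length of the whole gene in its place, Calml4 ranked 1, ahead of Enpp2, Folr1 and Slc39a12.

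The choice of members fixes their direction, so the fit across all genes adds no support. In it, 9 of the 10 genes passed the filter of a mean of at least 1 normalized count in either tissue, and Kl did not. Abca4, Calml4 and Slc39a12 were called higher in SCO at a limma adjusted p under 0.05 over all 28150 genes, 3 of 9, where 1.71% of all genes tested were called higher and 3.05% called in either direction. No member was called lower, where 1.34% of all genes tested were. The count was also 3 without SCO replicate 4. The median log2 difference of the 9 genes was 4.55, and 2.89 without SCO replicate 4, beside -0.04 over all genes tested. The authors' deposited table gives log2 fold changes of 4.82 for Calml4, 7.30 for Abca4 and 3.87 for Slc39a12, and it lists Tmem72 at 9.96 with no p-value.

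**Figure D3:**
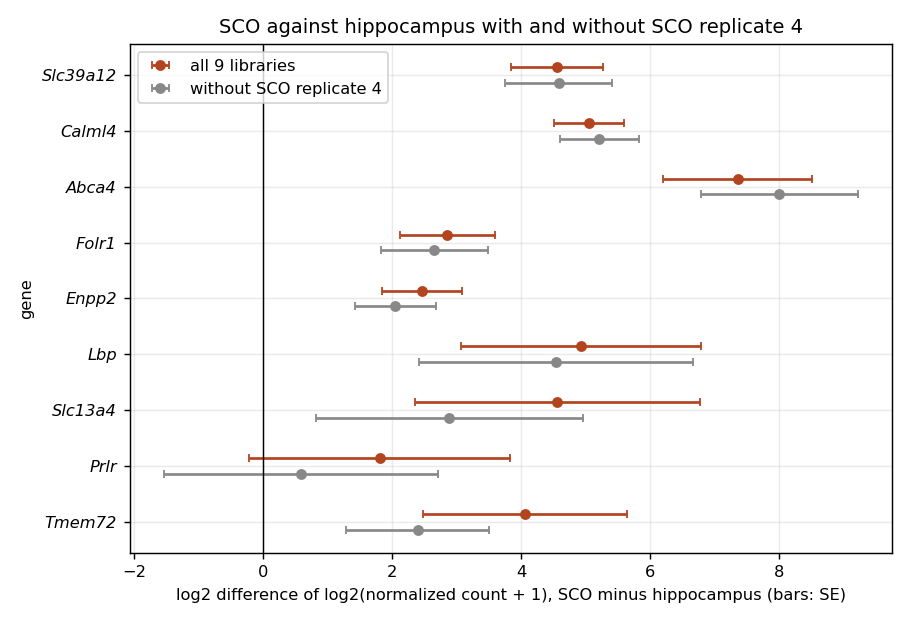
Log2 difference of SCO minus hippocampus, on the log2(normalized count + 1) scale, for the 9 genes that were fitted, with all 9 libraries (red) and without SCO replicate 4 (grey), and bars for the SE. Slc39a12, Calml4 and Abca4 keep or raise their difference without replicate 4, and Prlr, Slc13a4 and Tmem72 drop to 0.60, 2.89 and 2.40.

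The summed reads of the 10 genes took 0.0576%, 0.0768%, 0.0756% and 0.127% of the reads of SCO replicates 1 to 4, against 0.00498% to 0.0214% in hippocampus. Replicate 4 was the highest of the SCO libraries for 6 of the 10 genes. Enpp2 made up most of the sum in replicate 4. Without Enpp2 the shares were 0.0328%, 0.0476%, 0.0445% and 0.0402% in SCO replicates 1 to 4, against 0.00115% to 0.00592% in hippocampus, and replicate 4 lay within the range of the other SCO libraries.

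Other choroid plexus genes also differed in where they were found. Ttr codes for transthyretin, the carrier of thyroid hormone and retinol that choroid plexus epithelium secretes. It had 560, 403, 108 and 171311 normalized counts in SCO replicates 1 to 4, against 2133, 12985, 2.06, 0 and 7234 in hippocampus replicates 1 to 5. SCO replicate 4 was 306 times the next SCO library, and the other 3 SCO libraries were below 3 of the hippocampus libraries. Kcnj13, a potassium channel, had 0, 260, 0 and 2835 normalized counts in SCO replicates 1 to 4 and no read in hippocampus. Clic6, a chloride channel protein, had 0, 1.48, 110.5 and 385 in SCO, against 94.9, 0, 0, 0 and 176 in hippocampus. Both are further choroid plexus genes whose highest SCO library was replicate 4.

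Not every choroid plexus gene followed replicate 4. Otx2, a homeodomain factor needed for choroid plexus formation, was at 8654, 8708, 7705 and 8084 normalized counts in SCO replicates 1 to 4, against 197, 6.60, 2.06, 0 and 34.6 in hippocampus, an even level over the SCO libraries. Aqp1, the water channel of the apical epithelial membrane, had 1373, 0, 0 and 462 in SCO, against 49.9, 0, 0, 0 and 0 in hippocampus. Its highest SCO library was replicate 1, and replicates 2 and 3 had no read.

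The list of other choroid plexus epithelium genes has 55 symbols, of which 53 are in the table and 52 were tested. In the limma fit, 5 rose in SCO (Otx2, Slc2a12, Drd1, Krt18 and Slc5a7) and 1, Slc5a5, fell. Over all genes tested, 1.71% were called higher and 1.34% lower. The median log2 difference of the list was 0.99, beside -0.04 over all genes tested. Otx2 rose by 9.55 ± 1.33 on the log2 scale (SE, adjusted p = 0.0036). Krt18, a keratin of simple epithelia, rose by 8.45 ± 1.04 (adjusted p = 0.00185). Both calls held when each library in turn was left out. The calls of Slc2a12, Drd1, Slc5a7 and Slc5a5 did not, and they were lost in 6, 7, 7 and 8 of the 9 fits that left out 1 library. Each was lost without SCO replicate 2 or 3, and without SCO replicate 4 their limma adjusted p-values were 0.0684, 0.0669, 0.0665 and 0.081. Slc5a7 and Slc5a5 are named here because the counts were small, after their values were seen.

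At the 3-times line, 9 of the 45 listed genes with at least 100 normalized counts in SCO replicate 4 were high in replicate 4 alone (Car12, Car14, Clic6, F5, Htr2c, Kcne2, Kcnj13, Slc4a5 and Ttr), where 5.21% of all such genes were. The same count for SCO replicates 1, 2 and 3 was 2 of 33, 5 of 39 and 0 of 37, where 4.47%, 6.99% and 4.14% of all such genes were. Most of these names were seen in the data first. They include the anion exchanger gene Slc4a5, the potassium channel subunit gene Kcne2 and the serotonin receptor gene Htr2c, all known from choroid plexus epithelium. In hippocampus, Car12 and Htr2c were above their levels in SCO replicates 1 to 3 in every library. F5 was at 519 normalized counts in SCO replicate 4 and at 726 in hippocampus replicate 2. The highest hippocampus levels of Kcne2, Car14 and Slc4a5 were 431, 391 and 31.0, against 837, 3299 and 368 in SCO replicate 4. F5 had no read in SCO replicates 1 to 3 and so has no ratio to plot. Without Ttr, the list summed to 0.150%, 0.194%, 0.142% and 0.197% of SCO replicates 1 to 4, against 0.0799% to 0.102% in hippocampus. On that sum replicate 4 was 1.02 times the highest other SCO library.

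**Figure D4:**
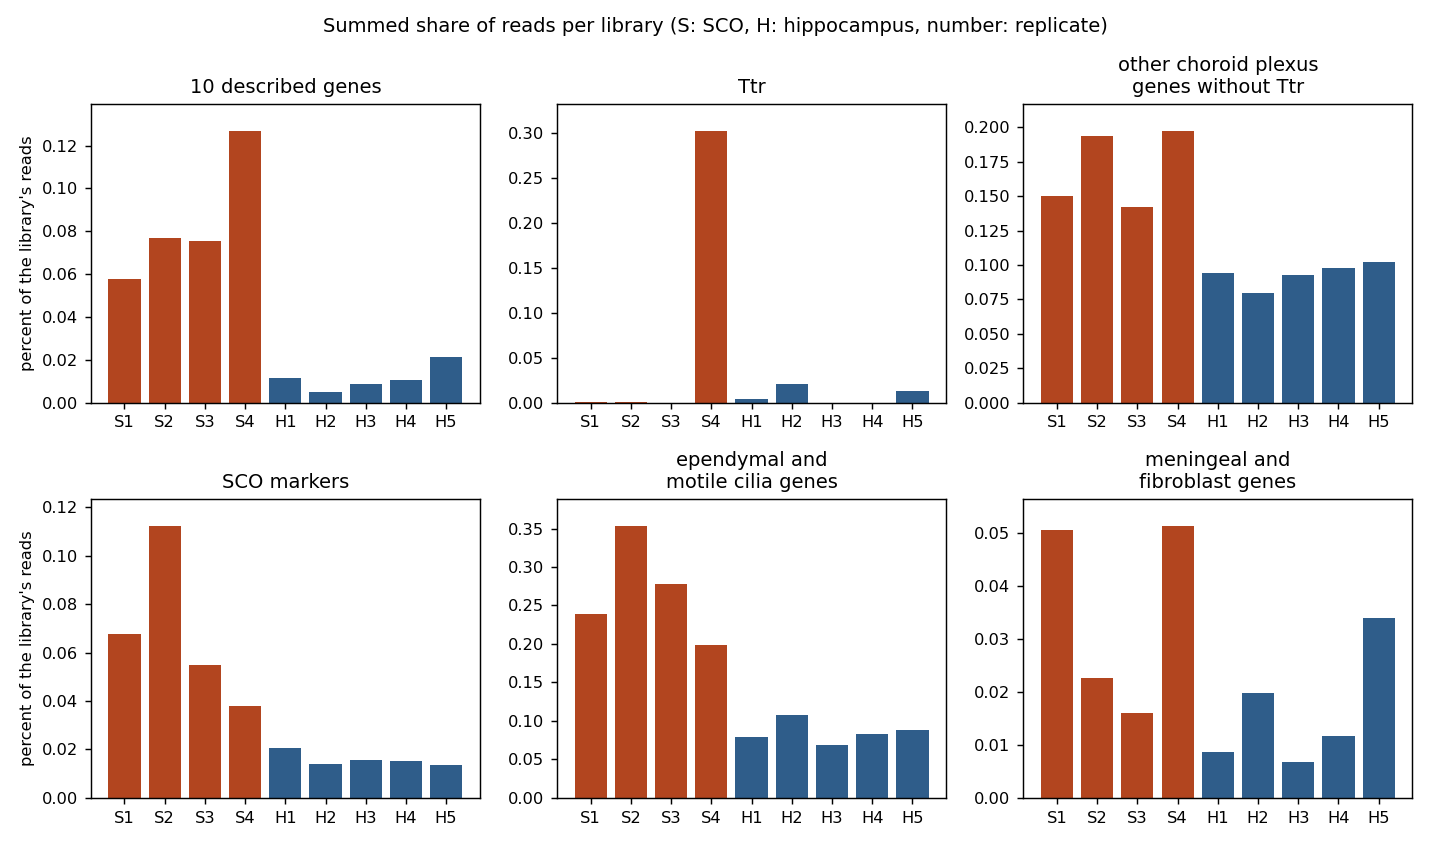
Share of each library's summed gene reads (percent, bars start at 0) taken by the 10 described genes, Ttr, the other choroid plexus genes without Ttr, SCO markers, ependymal and motile cilia genes, and meningeal and fibroblast genes, with SCO libraries (S, red) left of hippocampus libraries (H, blue). Ttr takes 0.303% of SCO replicate 4, while SCO markers and ependymal genes are lower in replicate 4 than in the other SCO libraries.

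Other lists moved with SCO replicate 4 as well. The 13 SCO markers took 0.0678%, 0.112%, 0.0547% and 0.0380% of SCO replicates 1 to 4, with Sspo at 2504, 9720.5, 2999 and 2027 normalized counts in SCO replicates 1 to 4. The 40 ependymal and motile cilia genes took 0.239%, 0.353%, 0.277% and 0.199% of SCO replicates 1 to 4, against 0.0691% to 0.107% in hippocampus. Replicate 4 was the lowest SCO library for both lists and the highest SCO library for none of their genes. Over the 9 libraries, where a difference between the tissues alone gives a high correlation, Calml4 had a Pearson r of 0.996 with Slc14a2 and of 0.988 with Nme5, a gene of motile cilia. Slc39a12 had an r of 0.996 with Fam216b and of 0.988 with the cilia gene Ttc21a.

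Meningeal and fibroblast genes, 20 in the table, took 0.0506%, 0.0225%, 0.0161% and 0.0513% of SCO replicates 1 to 4, against 0.00683% to 0.0339% in hippocampus. Aldh1a2, Slc22a6 and Slc6a13 were high in replicate 4 alone on the 3-times line, at 416, 659 and 1580.5 normalized counts there, against highest hippocampus levels of 571, 402 and 748, all in replicate 5. On the same line 2 genes of the list, Fmod and Tbx18, were high in SCO replicate 1 alone and 1, Slc47a1, in SCO replicate 2 alone. Among the telencephalic projection neuron genes, Fezf2 was high in SCO replicate 4 alone, at 332 normalized counts in it and 0 in the other SCO libraries, against 3068 to 6156 in hippocampus. Of the 18 oligodendrocyte genes, Mobp, Mog and Ugt8a were high in replicate 4 alone, at 307, 488 and 657 normalized counts. Each had a hippocampus library above that level, with Mobp at 429 and Ugt8a at 1062 in hippocampus replicate 5 and Mog at 1208 in hippocampus replicate 1. The list summed to 0.0447% to 0.0562% of the SCO libraries, and to 0.0257% to 0.0414% of the hippocampus libraries. The part of any of these cells in the levels of Enpp2, Prlr and Tmem72 was not tested.

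Of the other members, Folr1 was most like Exosc5 (r = 0.974), Bcap31 and the globin gene Hba-a1 (r = 0.956), Enpp2 most like Spock3 (r = 0.967), Abca4 most like Pdlim3 (r = 0.979), and Lbp most like Rnf125 (r = 0.992). Prlr was most like Inha (r = 0.916). For Slc13a4 the nearest gene, Gtf2a1l (r = 0.992), was read in SCO replicates 3 and 4 and had 1 read elsewhere, and for Tmem72 the nearest, H2-Q10 (r = 0.977), had 317 of its normalized counts in SCO replicate 4. The likeness of Kl rests on 1 read and is not given.

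Genes of the mean level of Slc13a4 and Prlr often had 0 reads in 1 or more SCO libraries. Prlr itself was read in every SCO library. The mean was taken over SCO and hippocampus libraries together. Of 8000 genes with a mean of 100 to 1000 normalized counts, 21.8% had 0 reads in 1 or more SCO libraries. The share was 0.635% of genes with a mean of 1000 to 10000. Both shares include genes with no read in any SCO library, such as Slc5a5 in the lower range. They are therefore no rate of absence from single SCO libraries. Tmem72 had a mean under this range of 100 to 1000. In SCO replicate 4, 126 genes had at least 100 normalized counts with at most 3 reads in each other library, and the number was 116, 247 and 107 for SCO replicates 1, 2 and 3, against 73 to 98 in hippocampus libraries. By the ratio of replicate 4 to the highest other library, Tmem72 ranked 160 and Prlr 236 among 15718 genes, Ttr 164, and Enpp2 333. The 10 genes at the top of that ranking, Tmem71, Gpr101, Itgam, Rhag, Apol8, Map3k7cl, AI427809, Trbv12-2, Cplx4 and Foxo6os, had 323.5 to 705 normalized counts in replicate 4 and at most 1 read in any other library, and none of them is in the choroid plexus lists.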

How the data were processed

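RNA-seq of 4 SCO and 5 hippocampus libraries from postnatal day 0 was used. The members, classes and lists were chosen with earlier results of these data known. The submitters' processing notes name FastQC, HISAT, HISAT2, featureCounts and DESeq2 with GRCm38. Their versions, the annotation, the strand setting and the treatment of overlapping genes are not stated in the notes or labels. The table was deposited as a normalized signal, read counts divided by 1 size factor per library. Per the file headers, the authors' own comparison gives a log2 fold change, a statistic that is a score, a p-value and an adjusted p-value.

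Whole reads were recovered for 100% of values with a tolerance of 1e-06. The main fit was limma-trend on log2(value + 1), keeping genes whose mean reached 1 in SCO or in hippocampus, with Benjamini-Hochberg adjustment and an adjusted p threshold of 0.05. This scale understates changes of low genes. Alternatives were a pseudocount of 10, no filter or a minimum mean of 10, robust moderation, a replicate block, edgeR with TMM and DESeq2 on recovered reads, and each library left out. The fits were tested on simulated data. Gene positions and exon lengths come from GENCODE M21 (31302 of 31883 identifiers matched with version). Versions were R 4.3.3, limma 3.58.1, edgeR 4.0.16, DESeq2 1.42.0 and Python 3.11.15. Intervals and floors cover counting error only. Without molecular identifiers, reads are no independent count of molecules.

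By the rule for named genes, all members are named, with the 3 genes of highest Pearson r of log2(value + 1) for each, of which the text gives fewer, the 10 genes with the highest ratio of SCO replicate 4 to the other libraries, up to 4 called genes of each list, and Ttr, Aqp1, Clic6, Kcnj13, Otx2, Sspo and Fezf2. Some genes that the rule or the lists take are not reported here. Predicted gene models, Rik clones and pseudogenes were left out of the rankings. Beside the members, 12 lists were used: other choroid plexus, SCO, ependymal, meningeal, red blood cell, telencephalic, oligodendrocyte, astrocyte and tanycyte, pineal, retinal pigment epithelium, endothelial, and habenular, thalamic and pretectal genes. Columns of other series numbered 0.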

Additional observations from a re-analysis of the deposited data

Results flagged for a closer look

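Of 32 groups checked, 11 had a highest or lowest library far from the others, by the gap to its nearest neighbour over the whole range of the group. Chance flags about 1 in 20 groups, but the genes were chosen with these levels known, so the number of groups is a description and cannot be read against that rate. Among the 4 SCO libraries the gap was 0.857 of the range for Enpp2, 0.861 for Prlr, 0.933 for Tmem72, 0.997 for Ttr, 0.908 for Kcnj13 and 1.00 for Fezf2, and replicate 4 was the high library for all 6 of these. For Sspo the gap was 0.874 and SCO replicate 2 was the high library, at 9720.5 normalized counts. Among the 5 hippocampus libraries the gap was 0.854 for Abca4, with replicate 4 high at 11.3 normalized counts, 1.00 for Aqp1, with replicate 1 high at 49.9, 0.824 for Otx2, with replicate 1 high at 197, and 0.905 for Sspo, with replicate 2 high at 3.30, which is 2 reads.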

How the results depend on the processing

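The replicate numbers, which follow the order of the sample titles, gave no sign of pairing between the tissues. The correlation of deviations of same-numbered libraries ran from -0.03 to 0.02. This cannot show whether libraries of the tissues came from the same animals, and other numberings of the libraries were not examined. With the replicate number as a block, 1 gene was called against 859 without it, 0 were called higher against 481, and the counts were 0 members called higher, and 0 higher and 0 lower on the other choroid plexus list. DESeq2 on recovered reads called 2721 genes, 1499 of them higher, with 6 members higher, and 8 higher and 2 lower on the other choroid plexus list. Without a filter that list had 3 higher and 0 lower, and with a pseudocount of 10 it had 0 lower. Leaving out each library gave 498 to 1077 genes called, 285 to 647 called higher, 3 to 5 members higher (5 without hippocampus replicate 2), and 2 to 5 higher and 0 to 1 lower on the list. Calls were 564 without SCO replicate 3, 565 without hippocampus replicate 1 and 498 without hippocampus replicate 3, and calls of higher genes were 303, 285 and 309 without SCO replicate 2, SCO replicate 3 and hippocampus replicate 3. The mean summed share of the members was 0.0842% in SCO and 0.0115% in hippocampus, and without Enpp2 it was 0.0412% and 0.00299%. Of 142 alternative log2 differences of the 9 members in the main fit, 142 were positive. Of these, 3 moved by more than the spread (Slc13a4 to 9.97 and Tmem72 to 9.96 in DESeq2, and Abca4 to 4.91 with a pseudocount of 10). Kl, whose only read was in hippocampus, is left out of these counts. Prlr and Tmem72 passed the 3-times line also on the RPM scale and with TMM. With 1 library carrying a pattern there is no replicate for it, and a level under 3 reads cannot be told from absence.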

Other observations

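SCO replicate 1 also held some genes at levels well above those of the other SCO libraries. The pineal and photoreceptor list has 18 genes in the table, 10 of them with at least 100 normalized counts in SCO replicate 1. Of these 10, 6 were at least 3 times as high there as in any other SCO library, where 4.47% of all such genes were. The 6 were Bsx, Gnb3, Gngt2, Lhx4, Prph2 and Tph1, and they were chosen after their values were seen. Gngt2 was read in every SCO library, at 716, 208, 194 and 233 normalized counts in SCO replicates 1 to 4. Tph1, which codes for the tryptophan hydroxylase of serotonin and melatonin synthesis in the pineal gland, had 4962, 0, 0.913 and 0 normalized counts in SCO replicates 1 to 4, against 167, 170.0, 21.7, 675 and 0 in hippocampus replicates 1 to 5. Gnb3, a G protein subunit of photoreceptor and pineal cells, had 3511 normalized counts in SCO replicate 1 and no read in the other 3 SCO libraries or in hippocampus. Abca4 was also highest in SCO replicate 1, at 843. The list summed to 0.0522%, 0.0264%, 0.0225% and 0.0216% of the reads of SCO replicates 1 to 4, against 0.0106% to 0.0221% in hippocampus. The part of pineal cells in the Abca4 level was not tested.

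Values of the remaining lists follow. The retinal pigment epithelium list took 0.0308%, 0.0292%, 0.0328% and 0.321% of SCO replicates 1 to 4, against 0.0182% to 0.0437% in hippocampus, and without Ttr 0.0185% to 0.0326% in SCO, against 0.0151% to 0.0223% in hippocampus. Of the 10 red blood cell genes tested, Alas2, Hba-a1, Hbb-bs and Hbb-bt rose in SCO at a limma adjusted p under 0.05. Over all genes tested, 1.71% did. On this list 1 gene was called lower, where 1.34% of all genes tested were. Astrocyte and tanycyte genes took 0.414% to 0.685% in SCO and 0.425% to 0.519% in hippocampus. Endothelial genes took 0.0714% to 0.0843% in SCO and 0.0274% to 0.0486% in hippocampus. Habenular, thalamic and pretectal neuron genes took 0.131% to 0.179% in SCO and 0.0158% to 0.0280% in hippocampus. Telencephalic genes took 0.0512% to 0.0665% in SCO and 0.272% to 0.466% in hippocampus.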
